A study of Mus musculus with 3 samples.

Results

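10 genes of the bone morphogenetic protein (BMP) pathway were followed across the cell types of the embryonic mouse kidney. They were taken by gene symbol: the ligands Bmp2, Bmp4, Bmp5 and Bmp7, the receptor Bmpr1a, the secreted modulators Bmper and Grem1, and the target genes Id1, Id2 and Id3. All 10 were present among the 32285 genes of the count tables. The list applied no cut on a measured value, but it was drawn up with earlier results of these data known. The data are droplet single-cell RNA sequencing of kidneys at E15.5 (embryonic day), with 1 library from each of 3 groups. Enl-WT embryos were Enl+/+ Wt1GFPCre/+, and Enl-T1 embryos were Enlflox-T1/+ Wt1GFPCre/+. Enl-T1 TDI-11055 embryos had the Enl-T1 genotype, and their mothers were given 100 mg/kg TDI-11055 by mouth every day from E10.5 to E14.5. The first 2 groups had no treatment. Sets of 3 values follow the order Enl-WT, Enl-T1, Enl-T1 TDI-11055, and values after TDI-11055 are those of the last.

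ENL, encoded by Mllt1, is a chromatin reader that recognises acylated histones, T1 is an insertion found in Wilms tumour, and the small molecule TDI-11055 occupies the acyl-binding pocket of ENL. Cre came from the Wt1 locus and replaced the function of 1 Wt1 allele in all 3 groups, controls included. The study describes it as active in the progenitors of nephron and stroma, and recombination in the ureteric epithelium and endothelium was not measured here. By the study's description the Enl-WT cells came from a pair of embryos and the Enl-T1 cells from a larger number, and the number behind the third library is not given in the sources used here. The counts could not be traced to single embryos. The T1 change is a short insertion that 3′ counts do not read, so Mllt1 counts do not check the genotype labels. With 1 library per group no test between conditions was possible. All intervals below are at 95% and reflect counting error alone.

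The filter left 5233 cells of Enl-WT, 4144 of Enl-T1 and 2754 of Enl-T1 TDI-11055, with a median of 5090, 9391 and 16932 unique molecular identifiers (UMIs) per cell. Pairs of libraries shared 5 to 8 cell barcodes. Ribosomal protein genes took a median of 16.5%, 26.8% and 27.9% of a cell's UMIs, and cells positive for Xist alone, without a Y-linked UMI, made up 26.5%, 73.3% and 35.1%. Six2, a marker of nephron progenitors, stood at 60.9, 54.7 and 111 CPM (UMIs per 1000000 UMIs of the cells summed) in the nephron lineage and at 1.04 to 4.49 CPM in the ureteric epithelium. The podocyte-like class did not keep its markers in every library: their summed level there was 12012, 783 and 4873 CPM. The counts were not corrected for free RNA, and a few UMIs of a gene in a class are not read as expression.

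BMPs are secreted ligands that bind pairs of type I and type II serine/threonine kinase receptors, and the receptors phosphorylate SMAD1, SMAD5 and SMAD9, which enter the nucleus with SMAD4. The Id genes are among the best known direct targets. They encode helix-loop-helix proteins without a DNA-binding domain, which hold back differentiation factors of the same family. In the kidney, BMP7 helps to maintain nephron progenitors, and Gremlin 1 restrains BMP4 so that the ureteric bud can grow out and branch.

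SMAD1 and SMAD5 bind GC-rich sequences with the core GGCGCC, a palindrome that reads the same on both strands. Promoter windows of 250 bases upstream of the start were found for 7 of the 10 genes in RefSeq (GRCm38.p6), and not for Id1, Bmp2 and Bmp7. The core was in 3 of the 7 windows, those of Id2, Grem1 and Bmpr1a. It holds G and C alone, and these windows were 62.8%, 72% and 78.8% GC, where the median promoter window had 52.4%. It was in 9.59% of the windows of all 32851 promoters and in 8 of 41 windows of the other pathway genes. The longer form, with GTCT following the core after 5 bases, was in 23 of all windows (0.0700%) and in none of the 7. The windows of Id2 and Grem1 are shown because these genes carry the core and are compared below, and that of Id4 because it was the Id family member outside the 10 that differed past 2-fold. The core is in capitals. The Id2 stretch (chr12:25096254-25096342, minus strand) lies within an intron of a longer annotated Id2 transcript, with the core beginning 231 bases upstream of the RefSeq start. The Grem1 window (chr2:113758649-113758898, minus strand) and the Id4 window (chr13:48260866-48261115, plus strand) lie upstream of the genes, with the core 78 and 148 bases from the start. A match is a match of letters and not evidence of binding.
Id2: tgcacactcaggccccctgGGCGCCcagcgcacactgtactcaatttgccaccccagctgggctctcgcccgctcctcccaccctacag
Grem1: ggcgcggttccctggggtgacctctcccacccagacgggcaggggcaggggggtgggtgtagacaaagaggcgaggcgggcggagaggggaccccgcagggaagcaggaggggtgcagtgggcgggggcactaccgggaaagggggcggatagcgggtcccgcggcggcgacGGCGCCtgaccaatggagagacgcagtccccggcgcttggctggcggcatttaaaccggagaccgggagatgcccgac
Id4: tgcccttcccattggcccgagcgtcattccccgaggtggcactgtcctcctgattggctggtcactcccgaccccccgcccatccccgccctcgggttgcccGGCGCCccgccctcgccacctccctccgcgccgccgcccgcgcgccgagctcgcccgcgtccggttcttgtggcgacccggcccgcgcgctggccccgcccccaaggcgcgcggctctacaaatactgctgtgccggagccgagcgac

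Levels come from the summed UMIs of all cells of a lineage in a library, in CPM. A ratio between libraries was divided by the median ratio of all genes tested in that lineage, since genes in general were not at a ratio of 1. The median gene of Enl-T1 over Enl-WT was at a log2 CPM ratio of -0.40 in the nephron, -0.30 in the ureteric epithelium, -0.30 in the stroma and -0.31 in the endothelium, and the median gene of the TDI-11055 comparison, Enl-T1 TDI-11055 over Enl-T1, lay between -0.07 and 0.02. A gene is called higher or lower where the ratio to the median gene passed 1.5-fold. Across the 4 lineages, 27 of the 40 gene and lineage pairs had enough counts. Of these, 13 were higher and 1 was lower in Enl-T1 relative to Enl-WT, with a median log2 ratio of 0.56. In Enl-T1 TDI-11055 against Enl-T1, 3 were higher and 6 lower, with a median of -0.30. Both comparisons use the Enl-T1 library, so a value that was high in that library by itself would give opposite directions in them.

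Read against all genes, the calls in Enl-T1 were more frequent upward, and the 1 downward call was in the nephron. Most upward calls were of Id1, Id2 and Id3, which are short. Of the shortest 10% of genes, 43.2% were higher in the nephron, 45.1% in the ureteric epithelium and 41.6% in the stroma. Id2, and Id3 in the ureteric epithelium, fell in the next 10% by length. Of those genes 23.5% were higher in the nephron, 24.8% in the ureteric epithelium and 25.3% in the stroma. The share of all genes is therefore not a like background for the Id genes. In the nephron 3 of 8 genes were higher and 1 lower, where 14.8% of all genes tested were higher and 17.2% lower. In the ureteric epithelium 3 of 5 were higher and 0 lower, where 12.9% of genes were higher and 9.84% lower. In the stroma 4 of 8 were higher and 0 lower, against 14.3% and 12.5% of genes, and in the endothelium 3 of 6 were higher and 0 lower, against 13.3% and 11.6%. The counts after TDI-11055 were closer to those of all genes. They were 1 higher and 2 lower in the nephron (7.09% and 7.57% of genes), 1 and 1 in the ureteric epithelium (7.31% and 10.2%), 1 and 2 in the stroma (10.1% and 13.3%), and 0 and 1 in the endothelium (11.8% and 16.4%).

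**Figure D1:**
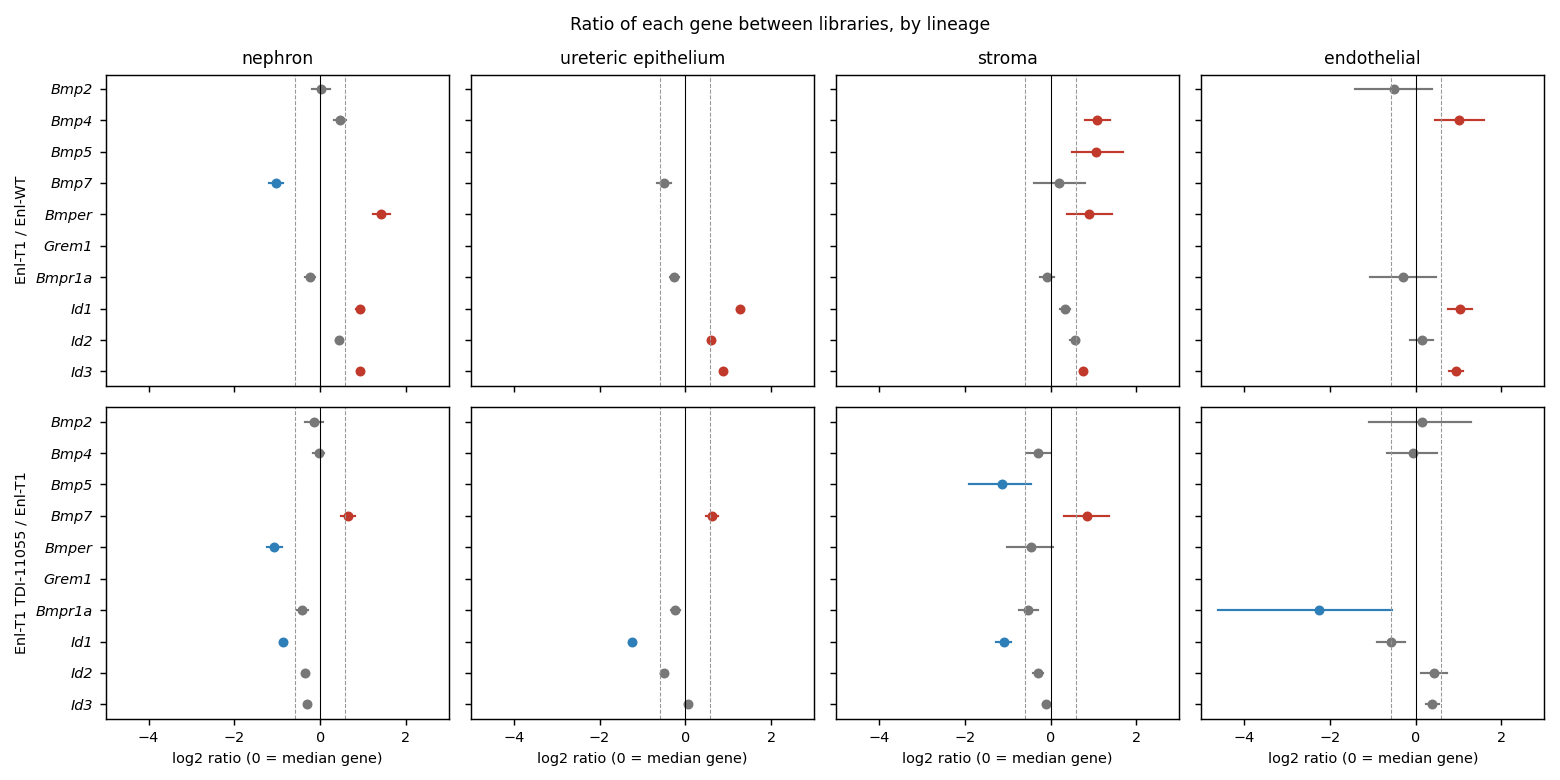
Log2 ratio to the median gene of the 10 genes in the 4 lineages, for Enl-T1 over Enl-WT and Enl-T1 TDI-11055 over Enl-T1, with 95% counting intervals and dashed lines at 1.5-fold. In the first comparison 13 of the 27 points lie past the upper line and 1, Bmp7 in the nephron, past the lower line.

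Among the ligands, Bmp7 in the nephron was the only one of the 27 pairs called lower in Enl-T1. In the nephron lineage it stood at 82.5 CPM in Enl-WT, 30.4 in Enl-T1 and 47.7 after TDI-11055, so that Enl-WT was highest and Enl-T1 lowest. The ratio of Enl-T1 to Enl-WT was 0.488 (0.436 to 0.545), and that of Enl-T1 TDI-11055 to Enl-T1 was 1.56 (1.39 to 1.75). The same order held in the ureteric epithelium, at 66.1, 37.9 and 59.0 CPM, with ratios of 0.706 (0.632 to 0.788) and 1.54 (1.39 to 1.71). The higher value after TDI-11055 lost its call under 3 alternatives in the nephron (a log2 ratio of 0.49 at lowest). It lost it under 5 in the ureteric epithelium, where it was 0.10 with clusters weighted alike in all libraries. That alternative used only clusters with at least 20 cells in every library: 12 in the nephron, 9 in the ureteric epithelium and 5 in the stroma. In the stroma Bmp7 was low, at 8.32, 7.74 and 14.1 CPM. The ratio after TDI-11055 was 1.79 (1.24 to 2.58), called higher, and fell short of the limit with clusters weighted alike (log2 0.42). The stromal ratio of Enl-T1 to Enl-WT was 1.15 (0.762 to 1.76) and ran from -1.18 to 0.92 on the log2 scale over the alternatives.

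Within the nephron lineage the highest level of Bmp7 was in podocyte-like cells of Enl-WT, at 231 CPM. It was 3.07 CPM in Enl-T1 and 91.9 CPM after TDI-11055, where the class held 44 and 28 cells and the summed podocyte markers were lower than in Enl-WT, so these are not levels of the same cell type. NP1-like cells, named from markers of self-renewing progenitors, gave 65.8, 34.6 and 54.1 CPM, with ratios of 0.661 (0.555 to 0.788) and 1.57 (1.35 to 1.82). Each of the 4 clusters of this class was lowest in Enl-T1, with 51.1 to 86.5 CPM in Enl-WT, 16.2 to 46.7 in Enl-T1 and 36.9 to 72.5 after TDI-11055. The summed NP1 markers were also lowest in Enl-T1 (1548, 583 and 1109 CPM). Their part in this result, and in those of the other genes in NP1-like cells below, was not tested. NP2-like cells were not called, at 44.4, 30.3 and 26.1 CPM with ratios of 0.852 (0.503 to 1.39) and 0.937 (0.553 to 1.64). Distal tubule/loop of Henle-like cells gave 97.9, 49.8 and 59.8 CPM, and the ratio of Enl-T1 to Enl-WT was 0.608 (0.441 to 0.824). Foxd1 cortical stroma-like cells went the other way, with 7.38, 13.9 and 19.6 CPM and a ratio of 2.24 (1.27 to 4.23) for Enl-T1 over Enl-WT. In the ureteric epithelium the tip-like class (ratios of 0.885 and 1.16) and the trunk/collecting duct-like class (0.806 and 1.02) were not called in either comparison. The urothelium-like class was called lower, at 0.530 (0.294 to 0.984), and then higher, at 2.68 (1.56 to 4.55).

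By lineage, Bmp4 was called higher in Enl-T1 in the stroma and the endothelium. In the stroma it stood at 28.9, 49.7 and 41.4 CPM, with a ratio of 2.12 (1.73 to 2.61) for Enl-T1 over Enl-WT. In the endothelium the levels were 14.53, 23.8 and 21.6 CPM, with a ratio of 2.03 (1.37 to 3.03). Both calls were kept under all 13 alternatives that used the 1.5-fold limit. In the nephron lineage the levels of 58.2, 61.0 and 59.9 CPM lay close together, and the ratio to the median gene was 1.39. Both progenitor classes were called higher, NP1-like cells at 28.4, 54.7 and 52.5 CPM with a ratio of 2.42 (1.96 to 3.004), and NP2-like cells at 74.4, 110.03 and 101 CPM with a ratio of 1.85 (1.37 to 2.48). Within the stroma, ureteric mesenchyme-like cells were called lower, at 107 CPM in Enl-WT and 58.3 in Enl-T1, a ratio of 0.652 (0.416 to 1.06) whose interval includes 1. Foxd1 cortical stroma-like cells were the class in which Bmp4 was called lower after TDI-11055, at 17.7, 34.6 and 17.9 CPM and a ratio of 0.526 (0.364 to 0.744). The stroma supplied 11.5% of all Bmp4 UMIs in Enl-WT, 35.6% in Enl-T1 and 10.3% after TDI-11055, and it held 870, 1399 and 270 cells.

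Bmp2 was concentrated in 2 classes of the nephron lineage. In NP2-like cells, named from markers of committed progenitors, it stood at 82.5, 105 and 77.3 CPM, and in distal tubule/loop of Henle-like cells at 76.7, 96.7 and 63.6 CPM. The ratios of Enl-T1 to Enl-WT were 1.58 (1.18 to 2.12) and 1.51 (1.17 to 1.92). Single cells carried up to 26 UMIs in the first class and 20 in the second. Over the lineage, Bmp2 was at 33.0, 25.3 and 23.1 CPM with a ratio of 1.02 (0.883 to 1.17), while the cells of the 2 classes numbered 211 and 467 in Enl-WT, 53 and 76 in Enl-T1 and 194 and 192 after TDI-11055. The level in NP1-like cells was 5.84, 13.2 and 8.46 CPM, with a ratio of 2.84 (1.79 to 4.69).

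Bmp5 was the stromal ligand. The stroma held 30 of 35 Bmp5 UMIs in Enl-WT (85.7%), 139 of 143 in Enl-T1 (97.2%) and 20 of 27 in Enl-T1 TDI-11055 (74.1%). Its levels there were 7.35, 12.5 and 5.75 CPM, with ratios of 2.10 (1.41 to 3.23) and 0.453 (0.268 to 0.727). The first ratio was a log2 value of 1.07. It came to 0.10 with stromal clusters weighted alike in every library. That alternative left out clusters under 20 cells in any library, ureteric mesenchyme-like cells among them. Ureteric mesenchyme-like cells had the highest level, at 53.4 CPM in Enl-WT and 32.1 in Enl-T1. They made up 53 cells of Enl-WT, 246 of Enl-T1 and 10 of Enl-T1 TDI-11055, in a stroma of 870, 1399 and 270 cells. The summed markers of that class were 3715 and 745 CPM. No Bmp5 UMI was found in the endothelium of any library, which allows levels of up to 1.28, 1.15 and 2.09 CPM.

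**Figure D2:**
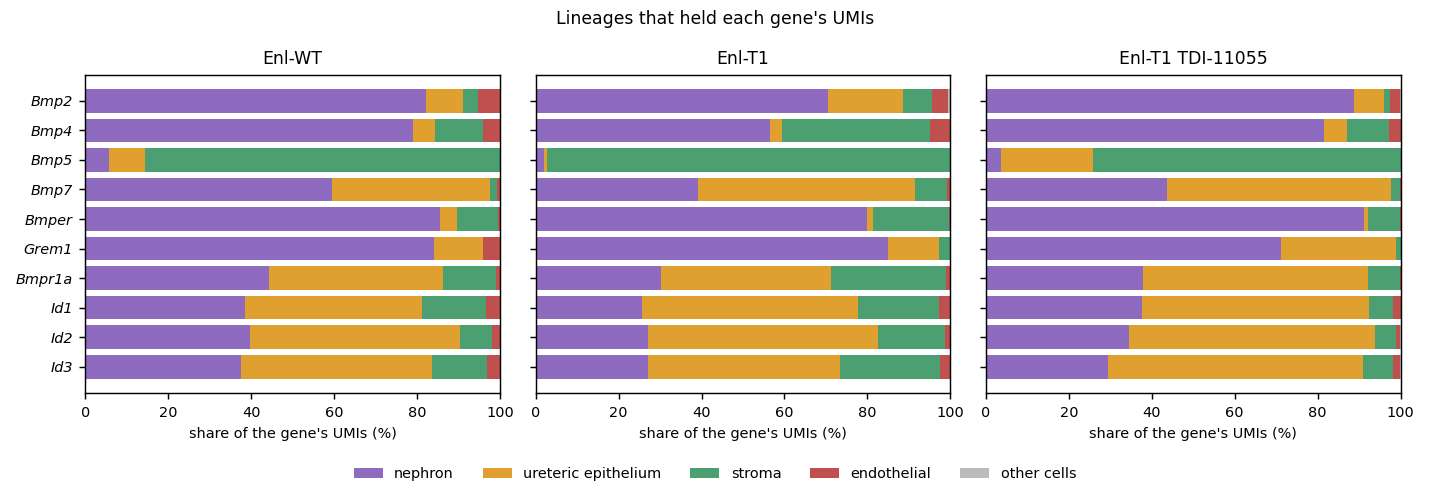
Share of each gene's UMIs (percent) that came from each lineage in the 3 libraries, as stacked bars. The stroma gave 11.5%, 35.6% and 10.3% of the Bmp4 UMIs of the libraries, from left to right, and most Bmp5 UMIs in each library.

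Bmper, a secreted protein that binds BMPs and modulates their signalling, had the largest Enl-T1 over Enl-WT ratio of the 8 genes with enough counts in the nephron lineage. It stood at 24.2, 49.0 and 23.5 CPM, with Enl-T1 above both other libraries, and the ratios were 2.68 (2.35 to 3.06) and 0.478 (0.424 to 0.539). The first came down from a log2 value of 1.42 to 0.59 when clusters were weighted alike in every library, just above the 1.5-fold limit. In 2 groups with many of its UMIs the first ratio was near 1, and the second was below 1 as in the lineage. NP1-like cells gave 50.3, 44.9 and 31.3 CPM, with ratios of 1.12 (0.939 to 1.34) and 0.698 (0.597 to 0.816). A cluster led by Col2a1 and Col9a1 gave 89.2, 74.1 and 47.8 CPM, with ratios of 1.07 (0.7998 to 1.45) and 0.611 (0.470 to 0.793). A cluster led by Sst and Akap12 gave 43.3, 96.6 and 91.0 CPM, and held 38 cells in Enl-WT, 200 in Enl-T1 and 15 after TDI-11055. With so few cells in the last library, this cluster was left out when clusters were weighted alike. It held 163 of the 703 nephron UMIs of Bmper in Enl-T1 and 10 of 336 in Enl-WT. The 44 Enl-T1 cells of the podocyte-like class, which had 1 Podxl UMI, gave 36 Bmper UMIs in 18 cells (111 CPM), against 4.14 CPM in Enl-WT.

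In the stroma Bmper stood at 9.55, 14.4 and 10.6 CPM, with a ratio of 1.86 (1.30 to 2.71) for Enl-T1 over Enl-WT. The classes of the stroma differed. Foxd1 cortical stroma-like cells gave 7.38, 24.6 and 6.98 CPM, with ratios of 3.98 (2.32 to 7.34) and 0.288 (0.160 to 0.487). Ureteric mesenchyme-like cells gave 66.7 CPM in Enl-WT and 10.9 in Enl-T1, a ratio of 0.195 (0.0949 to 0.409), in a class whose summed markers were also lower in Enl-T1.

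Grem1, the BMP antagonist Gremlin 1, was scarce, with 50, 114 and 97 UMIs in all kept cells, and passed the count limits in no lineage. In the nephron it stood at 3.02, 6.76 and 3.63 CPM. Distal tubule/loop of Henle-like cells were the 1 named class with enough counts, at 3.42, 27.9 and 5.40 CPM and ratios of 9.74 (4.59 to 22.5) and 0.206 (0.0982 to 0.412). The Enl-T1 value was 28 UMIs in 13 of 76 cells, 6 of them in 1 cell. A cluster led by S100g and Calb1 had a like pattern, at 4.61, 49.8 and 7.82 CPM, but held 34 Enl-T1 cells and 17 Grem1 UMIs.

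The receptor Bmpr1a, a type I receptor for BMP2 and BMP4, was within 1.5-fold of the median gene in Enl-T1 in all 4 lineages. In the nephron lineage it stood at 113, 71.8 and 54.1 CPM, in the ureteric epithelium at 133, 90.4 and 77.7 CPM, and in the stroma at 110.2, 85.0 and 60.1 CPM. The CPM was highest in Enl-WT and lowest in Enl-T1 TDI-11055 in each lineage. Relative to the median gene the Enl-T1 over Enl-WT ratios were 0.843 (0.778 to 0.912), 0.834 (0.775 to 0.898) and 0.950 (0.848 to 1.07). Ureteric mesenchyme-like cells were called lower, at 151 CPM in Enl-WT and 81.2 in Enl-T1 and a ratio of 0.641 (0.439 to 0.959). The ratios after TDI-11055 were 0.750, 0.851 and 0.697, and all 8 classes with enough cells were under the median gene in that comparison. The endothelium had the lowest level, at 12.8, 8.44 and 1.70 CPM. Its call after TDI-11055, a ratio of 0.211 (0.0410 to 0.687), rests on 27 and 3 UMIs.

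**Figure D3:**
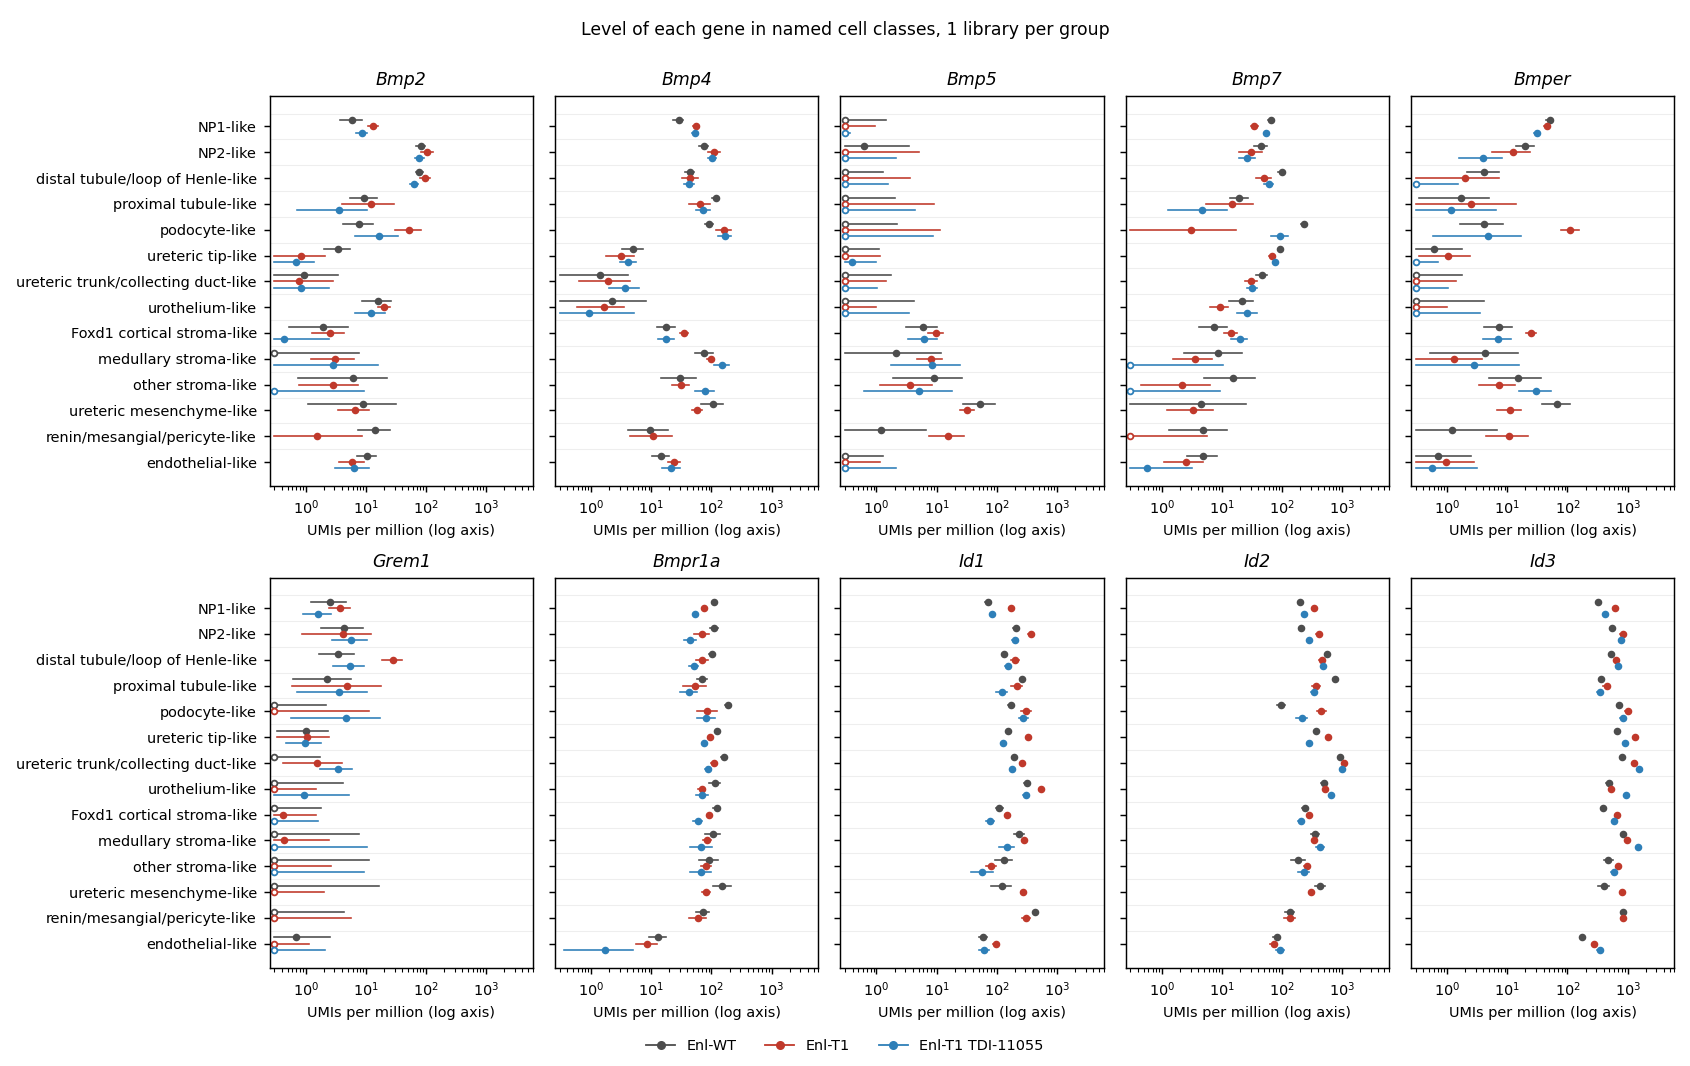
Level (CPM, log axis) of the 10 genes by named cell class in the 3 libraries, with 95% Poisson intervals, for classes with at least 20 cells. Open points mark levels under 0.3 CPM. Id1 in NP1-like cells is at 72.4 CPM in Enl-WT, 175 in Enl-T1 and 84.7 after TDI-11055.

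Of the targets, Id1 had the clearest pattern over the 3 libraries. In the nephron lineage it stood at 143 CPM in Enl-WT, 206 in Enl-T1 and 114 after TDI-11055, and in the ureteric epithelium at 197, 389 and 167 CPM. Enl-T1 was highest in both. The ratios of Enl-T1 to Enl-WT were 1.90 (1.80 to 2.02) and 2.43 (2.31 to 2.55), and those of Enl-T1 TDI-11055 to Enl-T1 were 0.552 (0.522 to 0.584) and 0.425 (0.407 to 0.444). The nephron call after TDI-11055 was lost with the mean of the cells' own CPM (log2 -0.58). In the endothelium the levels were 58.5, 95.7 and 61.3 CPM, with a first ratio of 2.03 (1.68 to 2.46). The stroma had nearly equal levels in Enl-WT and Enl-T1, at 197 and 202 CPM, and 96.0 CPM in Enl-T1 TDI-11055, with ratios of 1.26 (1.16 to 1.37) and 0.470 (0.417 to 0.527). Without division by the median gene, the log2 ratio of Enl-T1 to Enl-WT in the nephron was 0.52, below the 1.5-fold limit.

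Id3 was higher in the Enl-T1 library than in the Enl-WT library in all 4 lineages, and was within 1.5-fold of Enl-T1 after TDI-11055 in each of them. Its levels were 458, 660.2 and 533 CPM in the nephron, 702, 1054 and 1119 in the ureteric epithelium, 553, 762 and 717 in the stroma, and 177, 275 and 341 in the endothelium. The Enl-T1 over Enl-WT ratios were 1.91 (1.85 to 1.97), 1.85 (1.80 to 1.90), 1.70 (1.62 to 1.78) and 1.93 (1.73 to 2.15). After TDI-11055 they were 0.804, 1.05, 0.929 and 1.30, none past 1.5-fold. In cells positive for Xist alone the first ratio lost its call in the stroma (log2 0.48) and the endothelium (0.54). With no division by the median gene it lost it in the nephron (0.53) and the stroma (0.46).

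Id2 differed less. It stood at 365, 372 and 294 CPM in the nephron, 579, 711 and 506 in the ureteric epithelium, 239, 287 and 236 in the stroma, and 81.0, 71.9 and 92.0 in the endothelium. The ureteric epithelium was the lineage in which it passed 1.5-fold, with a ratio of 1.51 (1.47 to 1.56), and 6 of 13 alternatives took it below. Its levels in the nephron classes ran in different directions. NP1-like cells gave 198, 344 and 231 CPM and NP2-like cells 209, 414 and 279.6 CPM, with ratios of 2.18 (2.01 to 2.37) and 2.47 (2.11 to 2.90). Distal tubule/loop of Henle-like cells gave 549.5, 458 and 482 CPM, with a ratio of 0.995 (0.895 to 1.10).

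Among the 12 named classes with at least 50 cells in both libraries, Id1 was called higher in Enl-T1 in 9, Id3 in 8 and Id2 in 4, and none of them lower. Over these classes 16.1% of all gene and class pairs tested were higher and 15% lower, and all 10 genes together gave 34 higher and 6 lower of 75. Id3 was above the median gene in 12 of 12 classes, with a median ratio of 1.88 and a range of 1.18 to 2.45. Id1 had a median of 1.91 and ranged from 0.772 to 3.03. NP1-like cells had the largest ratio, 3.03 (2.67 to 3.46), at 72.4, 175 and 84.7 CPM. The summed markers of that class were lowest in Enl-T1, at 1548, 583 and 1109 CPM, and their part was not tested. Each of the 4 clusters of that class was highest in Enl-T1, with 37.8 to 93.9 CPM in Enl-WT, 102 to 231 in Enl-T1 and 47.4 to 131 after TDI-11055.

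Ureteric mesenchyme-like cells, at 120.1 and 277 CPM of Id1, had a ratio of 2.75 (1.87 to 4.22), in a class whose summed markers were 3715 and 745 CPM. Ureteric tip-like cells, the growing ends of the ureteric tree, had one of 2.65 (2.43 to 2.89). The tip-like cells stood at 154, 335 and 127 CPM of Id1, 368, 590 and 285 CPM of Id2, and 660.1, 1332 and 906 CPM of Id3, so that Enl-T1 was highest for each. The classes where Id1 was under the median gene in Enl-T1 were stromal. Renin/mesangial/pericyte-like cells gave 440.3 CPM in Enl-WT, 305 in Enl-T1 and 217 CPM among the 16 cells of Enl-T1 TDI-11055, and stroma-like cells of no finer class gave 131, 80.5 and 57.8 CPM. The summed markers of the renin/mesangial/pericyte-like class were in the same order, at 7107, 3053 and 2206 CPM, and their part in these results was not tested.

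In the 8 classes with at least 50 cells in both Enl-T1 and Enl-T1 TDI-11055, Id1 was under the median gene in 8 and called lower in 5, with a median ratio of 0.553 and a range of 0.383 to 0.821. Over these classes 10.4% of all pairs tested were higher and 13.2% lower, and the 10 genes together gave 3 higher and 15 lower of 54. The ureteric tip-like class had the lowest ratio, 0.383 (0.356 to 0.412), and NP1-like cells gave 0.486 (0.445 to 0.530). Id2 was called lower in 1 class, the ureteric tip (0.489), and Id3 higher in 1, the urothelium (1.65), where it stood at 487, 534 and 950.0 CPM. The summed markers of the urothelium-like class were 2192, 4165 and 1166 CPM, and their part was not tested.

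Short transcripts were higher in Enl-T1 in general, and the Id transcripts are short. The exonic lengths are 1160 bases for Id1 (chr2:152736251-152737410), 2438 for Id2 (chr12:25093799-25097140) and 1791 for Id3 (chr4:136143497-136145755), on GRCm38. Across genes, the Spearman correlation of the Enl-T1 over Enl-WT ratio with exonic length was -0.41 in the nephron, -0.51 in the ureteric epithelium, -0.43 in the stroma and -0.35 in the endothelium, where genes are not independent replicates. Of the shortest 10% of genes, 43.2% were called higher in the nephron and 45.1% in the ureteric epithelium. Of the next 10%, which held Id2, it was 23.5% and 24.8%. Set against the median of genes in the same length decile, the Id1 ratio was 1.33 in the nephron, 1.69 in the ureteric epithelium, 0.902 in the stroma and 1.53 in the endothelium. For Id3 it was 1.33, 1.505, 1.21 and 1.45, and for Id2 1.12, 1.23, 1.21 and 0.934. Bmp4, with an exonic length of 2248 bases, gave 1.15 in the nephron, 1.74 in the stroma and 1.72 in the endothelium. On this scale Id1 was higher past 1.5-fold in 5 of 12 classes and lower in 2. Id3 was higher in 5 and lower in 0, and Id2 was higher in 3 and lower in 1. Bmp4 was higher in 4 of 8 classes and lower in 1. The share of all genes past 1.5-fold on this scale was not computed, so these counts have no background. NP1-like cells kept 2.16, 1.81 and 1.94 for Id1, Id2 and Id3, and ureteric tip-like cells 1.93, 1.62 and 2.04.

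After TDI-11055 the length trend over all genes ran the same way (correlations of -0.23 to -0.44), but the shortest decile lay below the next. Its median was still above the median gene, by a log2 value of 0.03 to 0.23 by lineage. Id1 was therefore further from genes of its length than from the median gene. Its ratio on that scale was 0.490 in the nephron, 0.416 in the ureteric epithelium, 0.428 in the stroma and 0.572 in the endothelium, and it was lower in 6 of 8 classes. On the same scale Id2 was lower in 4 of the 8 classes, and Id3 was higher in 1 and lower in 2, again without a share of all genes. The longer genes moved little with this scale. Bmp7 in the nephron gave 0.473 for Enl-T1 over Enl-WT, and Bmper gave 2.81.

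**Figure D4:**
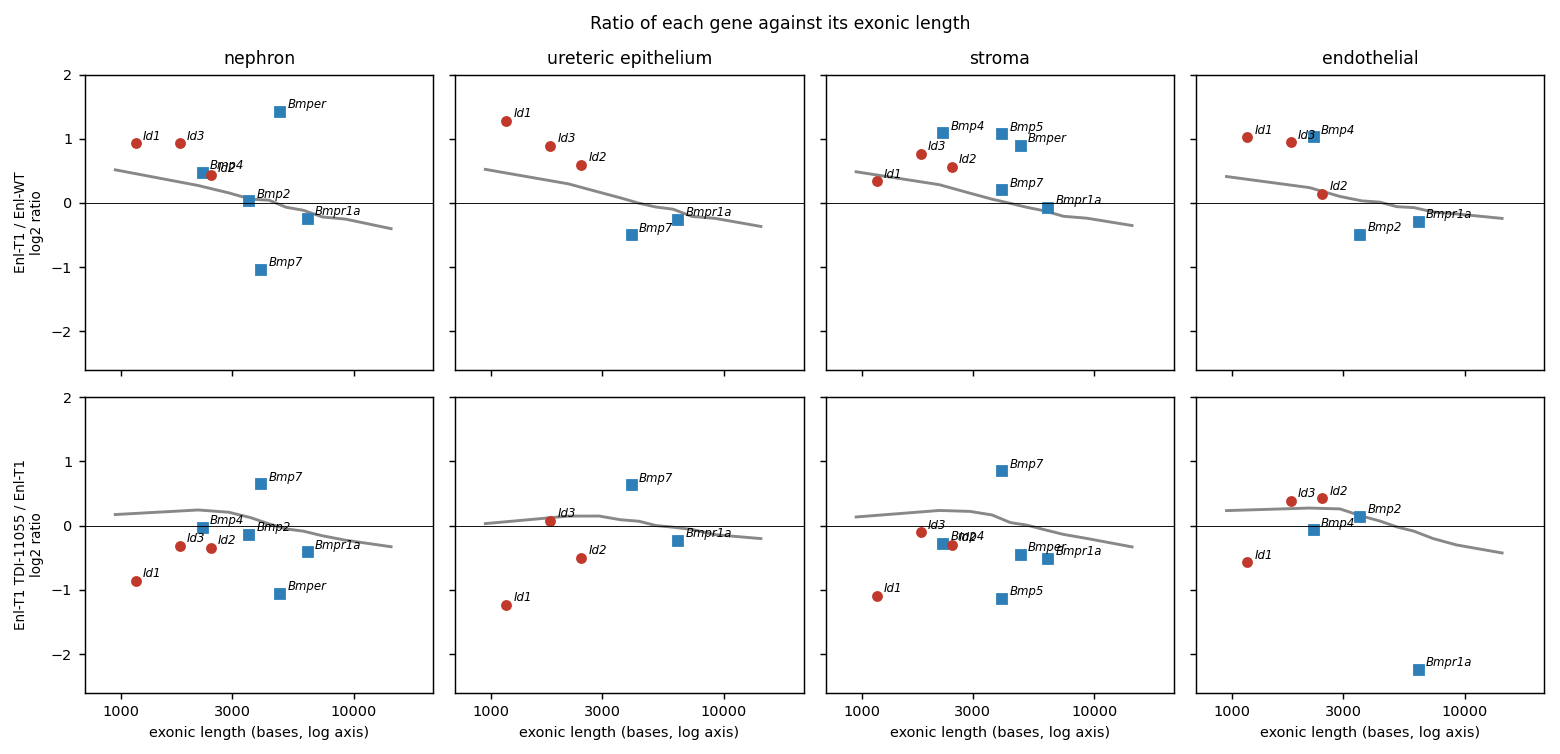
Log2 ratio to the median gene against exonic length (bases, log axis) of the genes in each lineage, with Id genes as red circles and the others as blue squares; the grey line is the median of all genes in each length decile. The line falls with length, and Id1 lies above it in the nephron (by 0.41) and the ureteric epithelium (by 0.76) for Enl-T1 over Enl-WT.

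The rest of the pathway was compared in the same way. Of 52 other ligands, receptors, modulators, SMADs and targets in the 4 lineages, 101 pairs had enough counts, and 11 were higher and 19 lower in Enl-T1, with a median log2 ratio of -0.16. Over all genes tested, 12.9% to 14.8% were higher and 9.84% to 17.2% lower, by lineage. After TDI-11055, 13 of the 101 pairs were higher and 21 lower, with a median of -0.19, where 7.09% to 11.8% of all genes were higher and 7.57% to 16.4% lower. The lineages differed in the first comparison. In the nephron 3 of 26 were higher and 8 lower (median -0.23), in the ureteric epithelium 1 and 4 of 23 (-0.26), and in the endothelium 1 and 4 of 22 (-0.06). In the stroma 6 of 30 were higher and 3 lower, with a median of 0.13.

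Sostdc1, a secreted antagonist of BMP and WNT signals, differed most in that list and went opposite ways in 2 lineages. In the nephron it stood at 167, 14.7 and 65.5 CPM, with ratios of 0.116 (0.101 to 0.134) and 4.43 (3.82 to 5.15). It was a leading gene of a cluster of distal tubule/loop of Henle-like cells. That class held 467, 76 and 192 cells, and the summed markers of that cell type in the nephron were 1083, 380 and 626 CPM. Their part in the nephron values was not tested. In the stroma Sostdc1 stood at 12.7, 54.7 and 7.76 CPM, with ratios of 5.29 (3.98 to 7.16) and 0.140 (0.0916 to 0.206). The classes of the stroma also differed in size. Foxd1 cortical stroma-like cells numbered 410, 509 and 186, medullary stroma-like cells 132, 346 and 28, and ureteric mesenchyme-like cells 53, 246 and 10. Their part in the stromal values given here was not tested. Id4, the remaining Id gene, was at 57.3, 147 and 37.9 CPM in the stroma, with ratios of 3.16 (2.75 to 3.63) and 0.255 (0.212 to 0.305), but at 84.7, 54.8 and 47.3 CPM in the nephron and 153, 118 and 139 CPM in the ureteric epithelium. Msx1, a homeobox target of BMP signals, had 35.6, 6.57 and 23.3 CPM in the endothelium. Crim1, which tethers BMPs at the cell surface, was at 77.4, 24.6 and 27.0 CPM in the stroma, and Bmp3 at 32.8, 43.5 and 12.1 CPM in the ureteric epithelium, with a ratio of 0.274 (0.235 to 0.319) after TDI-11055.

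The genes with the most similar levels to each of the 10 were sought over 35 points, the named classes in the 3 libraries, by Pearson's r of log2(CPM + 1). The points share libraries and depth, and r is given as a description. Bmp5 was closest to Tbx18 and Twist2 (both r = 0.93), Tbx18 being a marker used to name ureteric mesenchyme. Bmp4 was closest to Hoxa9 (0.88) and Hoxa10 (0.86), Bmp7 to Stk26 (0.87) and Gfra1 (0.86), and Bmper to Eya4 (0.86) and Snap91 (0.85). Bmp2 was closest to Oxtr (0.77) and Sv2b (0.76), and Grem1 to E330013P04Rik (0.83) and Doc2a (0.81). Wdr35 was among the genes close to Bmpr1a (0.92). Id2 was closest to Bnip3 (0.88) and Tmem141 (0.84), Id1 to Ano1 (0.69) and Epb41l1 (0.66), and Id3 to H3f3b (0.69) and Tceal9 (0.67). Among the 10 themselves, Id1 and Id3 had r = 0.60 and Bmp4 and Bmper r = 0.60.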

How the data were processed

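The authors sequenced 3 single-cell libraries (10x Genomics, 3′ chemistry), aligned them to mm10 with Cell Ranger 6.1.2 per the submitters' processing notes, and deposited raw UMI counts of called cells. No replicate of a group was analysed here. The study's methods give a more concentrated cell suspension for Enl-WT than for the other libraries, and the viability was similar. Barcodes with 1000 to 6000 genes and at most 10% mitochondrial UMIs were kept, as the study's methods give. Libraries were integrated and clustered in Seurat 5.3.0 (R 4.3.3) on 30 components at resolution 0.5, and the nephron, ureteric epithelium and stroma again on 20 components at 0.8, without the genes of the BMP pathway and other outcome or technical genes. Clusters were named "-like" from marker lists, and clusters led by other genes stayed unnamed. Doublets were left in; Scrublet (scanpy 1.11.5) scores were used in an alternative.

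UMIs were summed by lineage or class (Python 3.11.15, numpy 2.4.6, scipy 1.17.1, pandas 2.3.3). Levels have exact Poisson intervals, and ratios exact intervals from the split of counts, divided by the median ratio. Genes were tested where they averaged 5 CPM or more over the 3 libraries and had 30 UMIs, and classes needed 50 cells. The steps were tested on simulated data. Depth, at a median of 5090 to 16932 UMIs a cell, sets the intervals, and UMIs are the molecules counted. Lengths and positions are from GENCODE M21 (GRCm38). All 10 genes are named. Of the other pathway genes, up to 5 per comparison with the largest ratio past 2-fold at 10 CPM or more are named, and for each of the 10 the 2 genes most alike among those reaching 20 CPM in a class, except 1 that is not reported here. Class names were rebuilt here and may differ from those of the study. The genes, lists and alternatives were chosen with earlier results of these data known.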

Additional observations from a re-analysis of the deposited data

Results flagged for a closer look

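Bmp7 and Bmper differed in opposite directions between classes in Enl-T1 against Enl-WT, past 1.5-fold and with counting intervals clear of 1 on both sides, and the difference between the classes was not tested since each group is 1 library. The log2 ratio of Bmp7 was 1.17 in Foxd1 cortical stroma-like cells and -0.92 in urothelium-like cells, a difference of 2.08. The first rests on 15 Bmp7 UMIs in Enl-WT and 67 in Enl-T1. The second rests on 19 and 34, and the interval of its ratio, 0.294 to 0.984, ends close to 1. The summed markers of the urothelium-like class were 2192 CPM in Enl-WT and 4165 in Enl-T1. The log2 ratio of Bmper was 1.99 in Foxd1 cortical stroma-like cells and -2.36 in ureteric mesenchyme-like cells, a difference of 4.35. The latter rests on 15 Bmper UMIs in Enl-WT and 20 in Enl-T1. The summed markers of that class were 3715 and 745 CPM, so its name may not mark the same cells in both libraries. Those of the Foxd1 cortical stroma-like class were 2024 and 1183 CPM.

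Sostdc1 did so between lineages in both comparisons, which share the Enl-T1 library, and neither difference was tested. Its log2 ratio of Enl-T1 to Enl-WT was 2.40 in the stroma and -3.10 in the nephron, a difference of 5.50. That of Enl-T1 TDI-11055 to Enl-T1 was 2.15 in the nephron and -2.84 in the stroma, a difference of 4.98. Distal tubule/loop of Henle-like cells, with a cluster in which Sostdc1 was a leading gene, numbered 467, 76 and 192 in the 3 libraries. Their part in the nephron ratios was not tested. In the stroma, medullary stroma-like cells numbered 132, 346 and 28 and Foxd1 cortical stroma-like cells 410, 509 and 186. Their part in the stromal ratios was not tested either.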

How the results depend on the processing

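The limits are those of 3 single libraries. Differences between embryos, preparations and sequencing cannot be told apart from the groups, and levels under 5 CPM and classes under 50 cells were too shallow for a ratio. No paired analysis was possible because each group holds 1 library. 14 alternatives were run, 2 of them (length deciles, and named classes only) chosen after seeing the data. Of 692 log2 ratios recomputed, 517 moved by less than the counting interval, 175 moved by more, and no called ratio changed sign. Against the counts of 13 higher and 1 lower in Enl-T1 and 3 higher and 6 lower after TDI-11055, 8 were higher in Enl-T1 relative to genes of the same length decile and 6 past 2-fold. Lower in Enl-T1 were 5 with no division by the median gene, 3 on totals without mitochondrial, ribosomal and haemoglobin genes, 3 of 37 with no filter on low counts, 2 with no upper limit on genes per cell and 3 in cells positive for Xist alone. Higher after TDI-11055 were 5 of 38 with no filter, 0 past 2-fold, 5 in cells positive for Xist alone, 1 in cells with Y-linked UMIs and 1 with clusters weighted alike. Lower after TDI-11055 were 12 of 38 with no filter. For the counts with other settings, the value stayed within 1.5 times. The shares of all genes called were not computed under the alternatives.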
